A study of Mus musculus with 4 samples.

Results

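The genes described here encode the calcineurin phosphatase, its feedback regulator and the NFAT transcription factors. They are Nfatc1, Nfatc2, Nfatc3, Nfatc4, Nfat5, Ppp3ca, Ppp3cb, Ppp3r1 and Rcan1, chosen by gene symbol from the deposited expression table. All 9 symbols were found, each once, among 54532 genes in all. Expression was measured by RNA sequencing in 4 mouse libraries labelled as CD4+ T cells infiltrating tumours of the melanoma line B16 and obtained by flow cytometric sorting. The labels give the genotype of 2 libraries as WT and of 2 as Piezo1KO, and all 4 as exposed to the tumour environment. Piezo1 forms a calcium-permeable channel that responds to mechanical force, and the stated purpose of the series is its role in Th9 cells, a helper subset that secretes interleukin 9. The labels do not say which cells lacked Piezo1, which driver removed it, how old the animals were, or whether each library is its own animal. The p-values measure the spread between these libraries alone, which may be technical.

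Calcineurin is a phosphatase that calcium and calmodulin switch on. It is made of a catalytic A subunit, encoded by Ppp3ca, Ppp3cb or Ppp3cc, and a regulatory B subunit, encoded in most tissues by Ppp3r1. When calcium enters a T cell, for example through channels opened by the antigen receptor or by mechanical force, calcineurin strips phosphates from NFATc1 to NFATc4, which then move into the nucleus and switch on cytokine genes. Nfat5 shares their DNA-binding domain but is not controlled by calcineurin and is best known for the response to osmotic stress. Rcan1 binds and restrains calcineurin, and its own transcription is raised by NFAT.

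Each library had 13789266 to 15892797 gene-assigned reads, and values of a group are given in the order sample 1, sample 2. Markers of melanocytes, 10 genes, summed to an FPKM (reads scaled to gene length and library size) of 6149.6 and 6177 in the WT libraries and of 6763 and 6737 in the Piezo1KO libraries. Markers of T cells, 12 genes, summed to 1.57 and 1.86 in the WT and to 15.1 and 7.92 in the Piezo1KO libraries. Cd3e, Cd3g, Cd8a, Trac, Trbc1, Trbc2, Cd2 and Cd5 each had 0 reads in at least 1 library. Myeloid markers, 10 genes, summed to 64.1 and 46.7 in the WT and to 474 and 278 in the Piezo1KO libraries. Mitochondrial transcripts took 3.86 and 2.99% of reads in the WT and 20.1 and 48.3% in the Piezo1KO libraries. Erythroid markers, 5 genes, summed to 389 and 244 in the WT and to 5124 and 8472 in the Piezo1KO libraries. T cell markers thus summed to far less than melanocyte markers in all 4 libraries, and were higher in the Piezo1KO libraries, where Piezo1KO 1 had reads for all 12. The values below do not tell which cells they come from. In such mixed samples, fewer cells of a type and less RNA per cell cannot be told apart. Piezo1 itself had an FPKM of 27.8 and 27.6 in the WT and of 18.7 and 7.64 in the Piezo1KO libraries, a difference in log2(FPKM + 1) of -1.14 (limma adjusted p = 0.166).

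In the Piezo1KO libraries 3 of the 5 NFAT genes, Nfatc2, Nfatc3 and Nfat5, had lower levels than in either WT library, while the calcineurin subunit genes overlapped between the groups. Nfatc2 stood at 41.8% and Nfat5 at 42.5% of the WT mean FPKM, and Nfatc3 at 59.6%. Ppp3ca, Ppp3cb and Ppp3r1 stood at 99.8, 97.2 and 108% of it. Rcan1 was the 1 member with both Piezo1KO values above both WT values, at 120% of the WT mean. None of the 8 tested members passed the test at an adjusted p of 0.05 (limma, Benjamini-Hochberg over all genes), where 1.1% of 11085 tested genes passed (0.731% higher and 0.37% lower in Piezo1KO). At an unadjusted p under 0.05 there were 3 members, against 28.6% of all tested genes. Both Piezo1KO values lay below both WT values for 3 of 8 members, against 35.6% of tested genes, and above them for 1 of 8, against 33.9%. The members' counts were thus close to those of all genes. The median difference of the 8 tested members was -0.029 on the log2(FPKM + 1) scale, and that of all tested genes -0.0059. This scale understates the change of genes with low values.

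**Figure D1:**
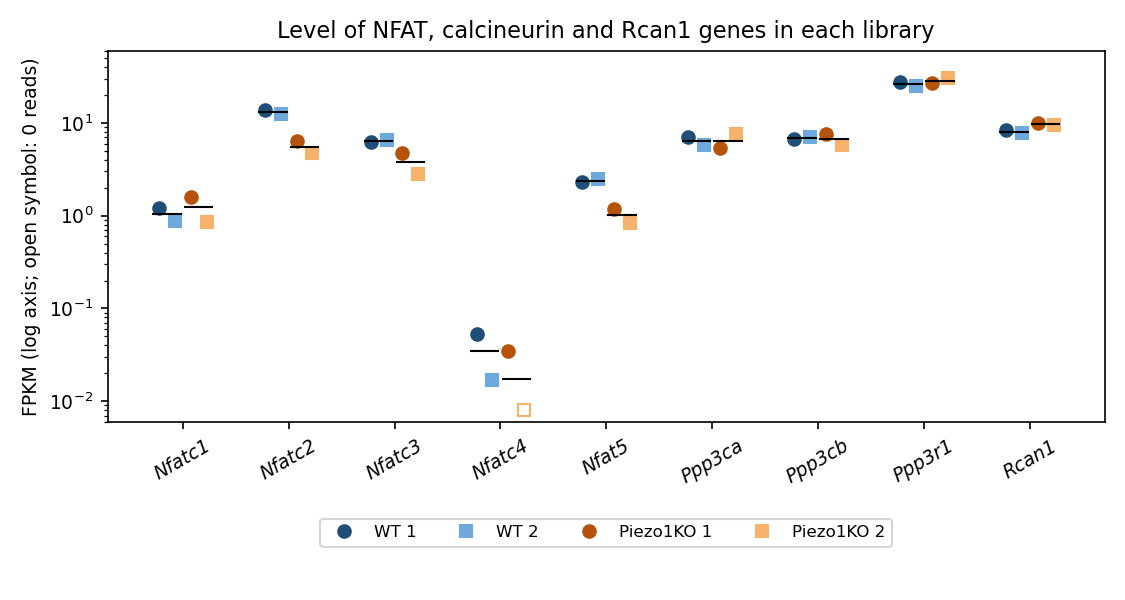
FPKM (log axis) of the 9 genes in each library. Filled symbols are single libraries, circles for sample 1 and squares for sample 2, black bars are group means, and the open square marks 0 reads. Nfatc2, Nfatc3 and Nfat5 are lower in both Piezo1KO libraries than in both WT libraries, while Ppp3ca, Ppp3cb and Ppp3r1 overlap between groups.

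The catalytic subunit genes overlapped between the groups in FPKM as deposited. With FPKM rescaled to all assigned reads, where the median of all genes was -0.67, the log2 difference was -0.71 for Ppp3ca and -0.73 for Ppp3cb. Ppp3ca (ENSMUSG00000028161, GRCm38 chromosome 3, 136670124 to 136937727), which encodes the alpha catalytic subunit, had an FPKM of 7.13 and 5.77 in the WT and of 5.31 and 7.57 in the Piezo1KO libraries. The 2 Piezo1KO libraries were the lowest and the highest of the 4. Its log2 difference was -0.013 (95% interval -0.56 to 0.54, limma adjusted p = 0.967). Ppp3cb (ENSMUSG00000021816, chromosome 14, 20499364 to 20546573), which encodes the beta catalytic subunit, had 6.69 and 7.06 in the WT and 7.61 and 5.76 in the Piezo1KO libraries. Here the order within the Piezo1KO group was the opposite, with Piezo1KO 1 highest and Piezo1KO 2 lowest. The log2 difference was -0.046 (95% interval -0.49 to 0.40, limma adjusted p = 0.859). These intervals do not show that the groups are alike. Without Piezo1KO 1 the difference of Ppp3ca was 0.21, without Piezo1KO 2 -0.23 and without WT 1 0.12, and that of Ppp3cb turned to 0.13 without Piezo1KO 2.

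The regulatory subunit gene was the most abundant member in every library. Ppp3r1 (ENSMUSG00000033953, chromosome 11, 17159263 to 17200375), which encodes calcineurin B, had an FPKM of 27.9 and 25.2 in the WT and of 26.7 and 30.6 in the Piezo1KO libraries. The groups overlapped, and the log2 difference was 0.10 (95% interval -0.29 to 0.50, limma adjusted p = 0.642), which turned to -0.68 with FPKM rescaled to all assigned reads, -0.11 with rescaling to reads outside mitochondrial genes, -0.15 after quantile normalisation and -0.025 with the gene length trend removed. Among protein-coding genes Ppp3r1 lay between percentiles 92.4 and 93.5 in all 4 libraries, a measure that no scaling of a library changes. In the annotation 462 of its 3228 exonic bases, or 14.3%, are shared with exons of Wdr92 on the same strand, so reads there could be split or lost. The FPKM of Ppp3r1 was 3.91 and 4.38 times that of Ppp3ca in the WT libraries and 5.03 and 4.05 times in the Piezo1KO libraries, with overlap between groups.

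The balance of the catalytic genes differed between the 2 Piezo1KO libraries. The ratio of Ppp3ca to Ppp3cb was 1.07 (95% interval 0.985 to 1.15) and 0.816 (0.753 to 0.885) in the WT libraries. It was 0.697 (0.634 to 0.766) in Piezo1KO 1 and 1.31 (1.15 to 1.501) in Piezo1KO 2. The intervals are exact binomial ones and cover counting error only. The Piezo1KO libraries thus lay on either side of both WT libraries and differed from each other by more than counting error, while the intervals of Piezo1KO 1 and WT 2 overlapped.

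Rcan1 (ENSMUSG00000022951, chromosome 16, 92391953 to 92470867) had an FPKM of 8.38 and 7.77 in the WT and of 9.87 and 9.47 in the Piezo1KO libraries. Both Piezo1KO values were above both WT values, by a small margin. The log2 difference was 0.23 (standard error 0.13, 95% interval -0.097 to 0.56, limma adjusted p = 0.264), and it turned to -0.49 with FPKM rescaled to all assigned reads, where the median of all genes moved to -0.67. With FPKM rescaled to reads outside mitochondrial genes it was 0.032. Rcan1 rested on 510 and 488 reads in the WT libraries and on 449 and 219 in the Piezo1KO libraries.

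Rcan1 has 2 starts among the RefSeq promoters used here, and they are shown because the internal one is known as the start that NFAT drives. The annotation holds transcripts with further starts, and the upstream start shown lies 4698 bases downstream of the annotated gene start. The value of a whole gene sums all starts, so these data do not resolve them. The sequences are the 250 bases before each start (RefSeq, GRCm38.p6, minus strand, 5′ to 3′), with capitals on every match of GGAAA, the core that NFAT proteins bind, or of its reverse complement TTTCC. The upstream one lies at chr16:92466170-92466419 and the internal one at chr16:92400079-92400328, and neither overlaps an annotated exon.
Rcan1 upstream start: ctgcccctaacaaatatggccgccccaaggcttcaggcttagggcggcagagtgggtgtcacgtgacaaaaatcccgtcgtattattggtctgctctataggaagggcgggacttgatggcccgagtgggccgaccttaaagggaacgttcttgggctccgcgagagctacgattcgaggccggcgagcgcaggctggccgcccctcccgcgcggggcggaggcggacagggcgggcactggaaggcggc
Rcan1 internal start: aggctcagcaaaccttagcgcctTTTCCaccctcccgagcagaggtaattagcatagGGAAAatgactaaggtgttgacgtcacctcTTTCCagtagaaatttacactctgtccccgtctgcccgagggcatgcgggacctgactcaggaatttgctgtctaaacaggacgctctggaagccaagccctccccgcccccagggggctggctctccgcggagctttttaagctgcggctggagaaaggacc
The internal window held 3 matches, at positions -227, -193 and -163 from the start, and the upstream window held 0. Of 32841 windows of this length before RefSeq starts, 55.6% held at least 1 match on either strand and 6.39% held 3 or more. A match of 5 letters is a description and does not show binding.

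Nfatc2 (ENSMUSG00000027544, chromosome 2, 168476410 to 168601657), one of the main NFAT factors of T cells and also transcribed in melanoma cells, was the NFAT gene with the highest level in every library. Its FPKM was 13.9 and 12.6 in the WT (2890 and 2702 reads), above the summed 12 T cell markers there, 1.57 and 1.86. In the Piezo1KO libraries it was 6.32 and 4.73 (986 and 375 reads), below that sum, 15.1 and 7.92. The cells that these levels come from were not tested. Both Piezo1KO values of Nfatc2 were at most 47.9% of the WT mean, and the groups were further apart than the spread within either. Means were 13.2 ± 0.921 and 5.53 ± 1.12 (SD, n = 2 each). The log2 difference of -1.13 (standard error 0.17, 95% interval -1.59 to -0.68) was the largest in size among the tested members, with a limma adjusted p of 0.0805 (unadjusted p = 0.00171) that missed the threshold. With the replicate number as a block, which no label ties to shared animals, the limma adjusted p was 0.0451, and after quantile normalisation it was 0.0497. The log2 difference was -1.31 without Piezo1KO 1, -0.95 without Piezo1KO 2, -1.07 without WT 1 and -1.20 without WT 2. With FPKM rescaled to all assigned reads it was -1.82 (limma adjusted p = 0.00167), a setting where 1707 of 11085 tested genes passed. The direction was the same in all 15 settings tried, with log2 differences from -1.82 to -0.81. Among protein-coding genes Nfatc2 stood at percentiles 86.5 and 85.3 in the WT and at 75.3 and 72.5 in the Piezo1KO libraries.

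Nfatc2 also has 2 RefSeq starts, shown because it is the member with the largest difference and because 2 windows of 1 gene can be compared. Both are on the minus strand, the upstream one at chr2:168601658-168601907 and the internal one, 11292 bases downstream, at chr2:168590366-168590615, marked as above.
Nfatc2 upstream start: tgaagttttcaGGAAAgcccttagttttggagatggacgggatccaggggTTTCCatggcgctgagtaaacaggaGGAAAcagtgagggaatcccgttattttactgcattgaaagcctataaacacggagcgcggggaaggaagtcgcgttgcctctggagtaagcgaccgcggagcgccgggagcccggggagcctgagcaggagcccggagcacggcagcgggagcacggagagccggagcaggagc
Nfatc2 internal start: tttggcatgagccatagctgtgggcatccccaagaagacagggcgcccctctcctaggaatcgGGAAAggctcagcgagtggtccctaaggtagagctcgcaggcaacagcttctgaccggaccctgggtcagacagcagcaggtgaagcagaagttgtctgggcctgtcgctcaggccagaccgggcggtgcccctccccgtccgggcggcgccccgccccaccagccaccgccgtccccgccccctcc
The upstream window held 3 matches of GGAAA or TTTCC and the internal window 1. The whole-gene value does not say which start the lower level belongs to.

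Nfatc3 (ENSMUSG00000031902, chromosome 8, 106058840 to 106130537), a calcineurin-controlled factor that acts beside Nfatc2 in lymphocytes, had an FPKM of 6.29 and 6.47 in the WT and of 4.78 and 2.83 in the Piezo1KO libraries. The 2 WT values lay close together, and the Piezo1KO values lay below them at 74.9 and 44.4% of the WT mean. The log2 difference was -0.65 (95% interval -1.26 to -0.039, limma adjusted p = 0.163). It was -0.35 without Piezo1KO 2 and -0.94 without Piezo1KO 1. With FPKM rescaled to all assigned reads it was -1.27 (limma adjusted p = 0.0388), where 1707 of 11085 tested genes passed. Of its exonic bases 1.87% are shared with Esrp2 on the opposite strand.

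Nfat5 (ENSMUSG00000003847, chromosome 8, 107293470 to 107379517) had an FPKM of 2.28 and 2.49 in the WT and of 1.19 and 0.835 in the Piezo1KO libraries, from 826, 932, 323 and 115 reads. Both Piezo1KO values were at or below 49.9% of the WT mean. The log2 difference was -0.75 (95% interval -1.23 to -0.28, limma adjusted p = 0.128), and -1.18 with a pseudocount of 0.1. The limma adjusted p was 0.0271 with FPKM rescaled to all assigned reads, where 1707 of 11085 tested genes passed. Without Piezo1KO 1 the log2 difference was -0.88. At 18378 bases it is the longest of the 9 genes.

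Nfatc1 and Nfatc4 were the scarce NFAT genes. Nfatc1 (ENSMUSG00000033016, chromosome 18, 80606205 to 80713071), which activated T cells raise strongly, had an FPKM of 1.20 and 0.886 in the WT and of 1.60 and 0.862 in the Piezo1KO libraries, from 176, 134, 175 and 48 reads. The Piezo1KO libraries were the highest and the lowest of the 4. The log2 difference was 0.11 (95% interval -0.54 to 0.76, limma adjusted p = 0.769), and it turned to -0.26 with FPKM rescaled to all assigned reads, to -0.0020 with rescaling to reads outside mitochondrial genes, to -0.0015 without WT 2 and to -0.13 without Piezo1KO 1. Nfatc4 (ENSMUSG00000023411, chromosome 14, 55823144 to 55833943), which has roles in neurons and muscle, had 6 and 2 reads in the WT and 3 and 0 in the Piezo1KO libraries. That is an FPKM of at most 0.0524, below the mean FPKM of 1 required for the test, and 3 reads would give between 0.0254 and 0.0689. It was the 1 member not tested, and no difference was detectable at this depth.

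**Figure D2:**
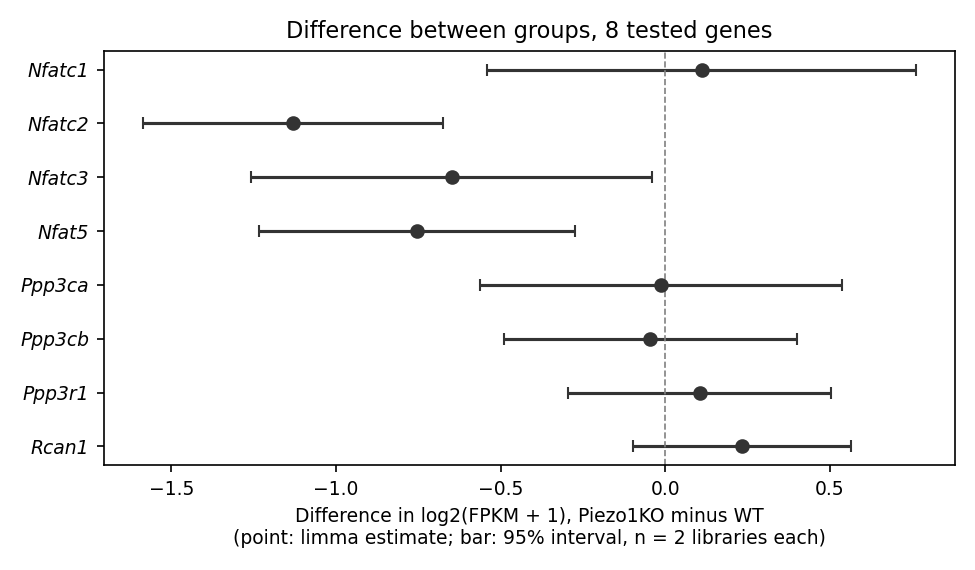
Difference in log2(FPKM + 1), Piezo1KO minus WT, of the 8 tested genes. Points are limma estimates and bars are 95% intervals from 2 libraries per group. The intervals of Nfatc2, Nfatc3 and Nfat5 lie below 0, from -1.59 to -0.039 in all, and the other 5 include 0.

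The order of the levels differed between the groups. In the WT libraries Ppp3r1 came first with a mean FPKM of 26.6, followed by Nfatc2 with 13.2, Rcan1 with 8.08, Ppp3cb with 6.88, Ppp3ca with 6.45, Nfatc3 with 6.38, Nfat5 with 2.39, Nfatc1 with 1.04 and Nfatc4 with 0.0347. The 2 libraries separated each neighbouring pair except Ppp3cb from Ppp3ca and Ppp3ca from Nfatc3. In the Piezo1KO libraries Ppp3r1 was first with 28.7 and Rcan1 next with 9.67, and Nfatc2, at 5.53, came after Ppp3cb with 6.68 and Ppp3ca with 6.44. There Ppp3cb, Ppp3ca, Nfatc2 and Nfatc3 overlapped from each to the next, and so did Nfatc1 and Nfat5.

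Ratios within a library do not depend on how FPKM were scaled between libraries. The summed FPKM of the 5 NFAT genes was 23.7 and 22.4 in the WT and 13.9 and 9.26 in the Piezo1KO libraries. Divided by the summed FPKM of the catalytic genes Ppp3ca, Ppp3cb and Ppp3cc, it was 1.24 and 1.23 in the WT and 0.774 and 0.470 in the Piezo1KO libraries. The genes summed differ in length, with 2985 bases for Ppp3cc and 18378 for Nfat5. The part of gene length in this ratio was not tested. The ratio of Nfatc2 to Ppp3ca, genes of nearly the same length (10578 and 9981 bases), was 1.94 (95% interval 1.82 to 2.07) and 2.18 (2.03 to 2.33) in the WT. It was 1.19 (1.08 to 1.31) and 0.625 (0.547 to 0.714) in the Piezo1KO libraries. Nfatc2 was thus lower relative to Ppp3ca in both Piezo1KO libraries, by more than counting error. An exact permutation test of 2 libraries against 2 cannot give a two-sided p below 0.333, and the ratios are given as values without a test.

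The shares of single genes in the summed NFAT FPKM also differed between the groups. Shares within a library add up to a fixed whole, so a lower share of Nfatc2 goes with higher shares of other genes. The FPKM of Nfatc1 overlapped between the groups, and that of Nfatc3 was lower in both Piezo1KO libraries. Nfatc2 made up 58.5 and 56.0% of the summed NFAT FPKM in the WT and 45.4 and 51.1% in the Piezo1KO libraries. Nfatc1 made up 5.07 and 3.95% in the WT and 11.5 and 9.30% in the Piezo1KO libraries. Nfatc3 made up 26.6 and 28.9% in the WT and 34.3 and 30.6% in the Piezo1KO libraries. The ratio of Nfatc2 to Nfat5 overlapped between the groups, with 6.08 and 5.04 in the WT and 5.30 and 5.67 in the Piezo1KO libraries. The ratio of Nfatc3 to Nfat5 was 2.76 and 2.59 in the WT and 4.01 and 3.39 in the Piezo1KO libraries, without overlap, but the interval of Piezo1KO 2 (2.71 to 4.27) reached the value of WT 1. Nfatc2 and Nfat5 thus stood lower by a similar factor, and Nfatc3 by less.

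**Figure D3:**
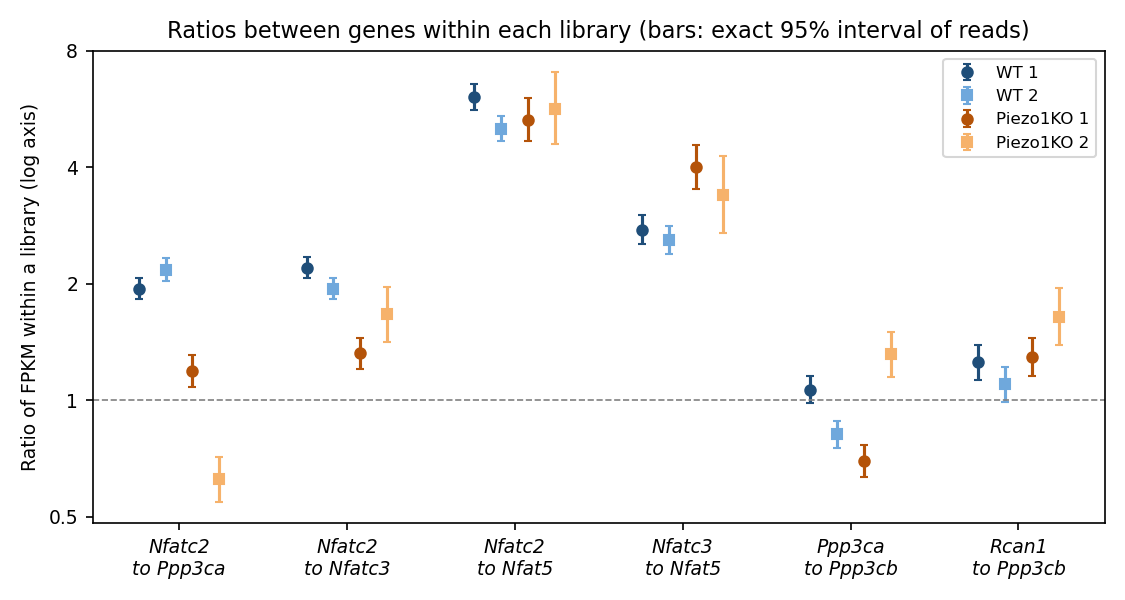
Ratio of the FPKM of 2 genes within each library (log axis). Points are libraries and bars are exact 95% binomial intervals of the reads, which cover counting error only. Nfatc2 to Ppp3ca is 1.94 and 2.18 in the WT and 1.19 and 0.625 in the Piezo1KO libraries, while Ppp3ca to Ppp3cb has the Piezo1KO libraries on either side of the WT.

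Gene length moved with the difference between groups across the whole table. Over 11085 tested genes the log2 difference had a Spearman rho of -0.52 with gene length, a description across genes that share the same 4 libraries. With the genes in 5 length classes of nearly equal size, the median difference was 0.58 in the shortest class, up to 1875 bases, and -0.32 in the longest, from 7077 bases. In the longest class 68.3% of genes had both Piezo1KO values below both WT values, against 10.996% in the shortest. Of the 8 tested members 6 were in the longest class, namely Nfatc1, Nfatc2, Nfatc3, Nfat5, Ppp3ca and Ppp3cb, while Ppp3r1 and Rcan1 were in the second shortest.

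Members in the longest class lay in its lower and its upper part. Nfatc2 lay lower than nearly all genes there, since 0.812% of the 2216 had a lower value. For Nfat5, whose change the log2(FPKM + 1) scale understates, that share was 8.94%, and for Nfatc3 14.8%. Ppp3cb, Ppp3ca and Nfatc1 lay in the upper part, with 79.2, 81.6 and 89.2% of the genes of the class below them. With the length trend removed the differences were -0.81 for Nfatc2 (limma adjusted p = 0.112), -0.30 for Nfatc3 (0.330) and -0.29 for Nfat5 (0.300). Those of Ppp3ca and Ppp3cb then turned to 0.29 and 0.22, that of Nfatc1 was 0.33 and that of Rcan1 0.080. The value of Nfatc3 and of Nfat5 thus moved by more than 1.5 times with gene length, and the part of length in the remaining differences was not tested.

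**Figure D4:**
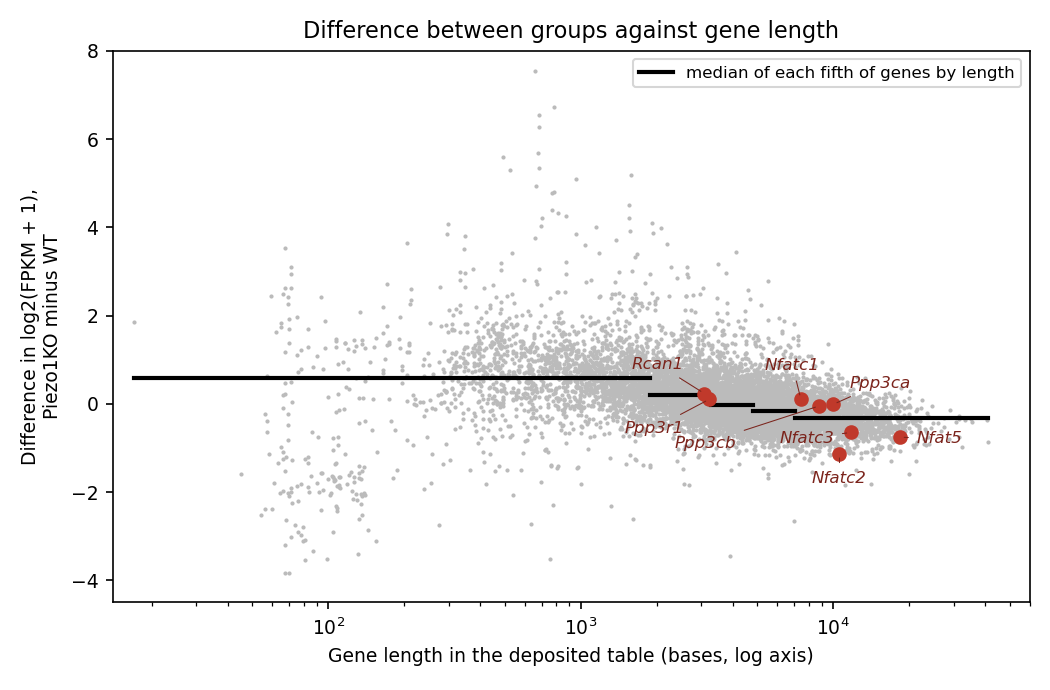
Difference in log2(FPKM + 1), Piezo1KO minus WT, against gene length in bases (log axis). Grey points are the 11085 tested genes, red points the 8 tested members, and black lines the median of each of 5 length classes, from 0.58 in the shortest to -0.32 in the longest. Nfatc2, Nfatc3 and Nfat5 lie below the line of the longest class and Nfatc1, Ppp3ca and Ppp3cb above it.

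The other calcineurin genes showed no call. Of 14 listed subunits and regulators 10 were tested and 0 passed (limma), with a median log2 difference of -0.051. At an unadjusted p under 0.05 there were 2 of the 10, against 28.6% of all tested genes. Ppp3cc, the third catalytic gene, had an FPKM of 5.32 and 5.42 in the WT and of 5.07 and 6.39 in the Piezo1KO libraries, a level close to those of Ppp3ca and Ppp3cb. Its log2 difference was 0.073 and turned to -0.61 with FPKM rescaled to all assigned reads, to -0.12 with rescaling to reads outside mitochondrial genes, to -0.098 with the length trend removed and to -0.070 without Piezo1KO 2. Ppp3r2, the testis form of the B subunit, had 0 reads in all 4 libraries. Rcan3, a relative of Rcan1, was at 13.6 and 11.6 in the WT and 11.4 and 9.66 in the Piezo1KO libraries (log2 difference -0.24, limma adjusted p = 0.341), above Rcan1 in each library. Rcan2 had 3 reads in Piezo1KO 1 and 0 in the other libraries.

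Cabin1, which encodes a calcineurin-binding inhibitor, had the largest difference of that list. Its FPKM was 5.61 and 5.88 in the WT and 3.96 and 1.93 in the Piezo1KO libraries, a log2 difference of -0.82 (limma adjusted p = 0.158), at a gene length of 12151 bases. Fkbp1a, the binding protein of the calcineurin inhibitor tacrolimus, had 60.4 and 64.1 in the WT and 81.1 and 108 in the Piezo1KO libraries. Its log2 difference was 0.58 (limma adjusted p = 0.160) and turned to -0.22 with FPKM rescaled to all assigned reads. Ppia, the binding protein of cyclosporin, had 0.36 (limma adjusted p = 0.497), which turned to -0.45 with FPKM rescaled to all assigned reads, -0.69 after quantile normalisation and -0.072 without Piezo1KO 2.

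Calm2 and Calm3 encode calmodulin, which carries the calcium signal to calcineurin, and were abundant in all libraries. Calm2 had a log2 difference of 0.34 (limma adjusted p = 0.336), which turned to -0.47 with FPKM rescaled to all assigned reads, -0.48 after quantile normalisation and -0.20 with the length trend removed. Calm3 had -0.13 (limma adjusted p = 0.678) and turned to 0.075 without Piezo1KO 2. Chp1, a calcineurin B homologue, had -0.053 (limma adjusted p = 0.811), with 0.049 without WT 1, and Homer3, which competes with calcineurin for NFAT, had -0.36 (limma adjusted p = 0.372). Homer2 had 0 reads in every library, and Akap5, a calcineurin anchor, had 1 and 4 reads in the WT and 0 in the Piezo1KO libraries.

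Kinases that return NFAT to the cytoplasm also showed no call. All 8 listed kinases were tested and 0 passed (limma), with 3 at an unadjusted p under 0.05, against 28.6% of all tested genes. Both Piezo1KO values were below both WT values for 6 of the 8, against 35.6% of all tested genes and 10.996 to 68.3% across the length classes. The median log2 difference was -0.21. Gsk3b had an FPKM of 16.7 and 16.8 in the WT and of 12.3 and 9.79 in the Piezo1KO libraries (log2 difference -0.57, limma adjusted p = 0.138). Csnk1e had -0.53, Dyrk2 -0.42 and Dyrk1a -0.25 (limma adjusted p of 0.132, 0.158 and 0.252), and Dyrk1a was 0.0018 with the length trend removed. Of 9 other substrates of calcineurin, among them Mef2 and Crtc factors, 0 passed (limma), with 3 at an unadjusted p under 0.05 (28.6% of all tested genes) and a median of -0.29. That median was -0.014 with the length trend removed. Crtc1, a coactivator of CREB that calcineurin frees, had -0.57, Crtc3 -0.48 and Bad, a death-promoting protein, 0.64 (limma adjusted p of 0.159, 0.163 and 0.157). Bad turned to -0.098 with FPKM rescaled to all assigned reads. Mef2a had -0.38 (limma adjusted p = 0.184), which turned to 0.027 with the length trend removed.

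Of 20 listed genes that NFAT is known to switch on in T cells, 14 had a mean FPKM below 1 and were not tested, and Il5, Il9 and Il21 had 0 reads in all 4 libraries. Of the 6 tested, 0 passed (limma), with 4 at an unadjusted p under 0.05 (28.6% of all tested genes), and the median was 1.21. Without a filter the median was 0.27 over 17 targets, against -0.012 over all 23654 genes kept there. Of the 17 targets, 15 had a positive and 2 a negative difference. Some of these signs rest on very few reads, such as that of Tox, with 1 read in Piezo1KO 1 and 0 in the other libraries. Csf2 had 1 and 0 reads in the WT and 0 and 2 in the Piezo1KO libraries. Ptgs2 and Egr2 had a WT mean FPKM under 1 and reached the filter through the Piezo1KO libraries, which biases the count and the median towards higher values. Tnf, an inflammatory cytokine, had an FPKM of 1.39 and 2.10 in the WT and of 23.3 and 8.71 in the Piezo1KO libraries (log2 difference 2.50, limma adjusted p = 0.106). Ptgs2, which encodes the inducible cyclooxygenase, had 0.786 and 0.987 in the WT and 19.4 and 5.19 in the Piezo1KO libraries (2.58, limma adjusted p = 0.123). Tnfrsf9, the costimulatory receptor 4-1BB, had 3.84 and 3.30 in the WT and 10.3 and 16.3 in the Piezo1KO libraries (1.62, limma adjusted p = 0.0802). With the replicate number as a block Tnf and Tnfrsf9 had limma adjusted p of 0.0437 and 0.0378. Egr2, a transcription factor induced by calcium signals, had 0.81 (limma adjusted p = 0.159). Not all targets were higher, and the tested Nr4a1 and Il4 overlapped between the groups. Nr4a1 had an FPKM of 52.9 and 72.8 in the WT and of 76.1 and 53.5 in the Piezo1KO libraries. Il4 had 1.49 and 2.04 in the WT and 2.65 and 1.96 in the Piezo1KO libraries. Of the untested targets Il13, Ifng, Ctla4, Icos and Pdcd1 are named after their values were seen. Il13 had 0 and 6 reads in the WT and 0 in the Piezo1KO libraries. Ifng had 0 and 1 reads in the WT and 1 and 0 in the Piezo1KO libraries. Ctla4, an inhibitory T cell receptor, had an FPKM of 0.0435 and 0.1898 in the WT and of 2.27 and 1.26 in the Piezo1KO libraries. Icos, a costimulatory receptor, had 0 and 0.0430 in the WT and 0.771 and 0.778 in the Piezo1KO libraries. Pdcd1, which encodes PD-1, had 1 read in each WT library and 28 and 5 reads in the Piezo1KO libraries.

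Some of these target genes are transcribed by other cells too, and markers of such cells were also higher in the Piezo1KO libraries. Summed myeloid markers were 64.1 and 46.7 in the WT and 474 and 278 in the Piezo1KO libraries, with all 10 markers at an FPKM of 1 or more in both Piezo1KO libraries and 7 in each WT library. Summed T cell markers also were higher in Piezo1KO, with 5 and 3 of 12 at an FPKM of 1 or more in the Piezo1KO libraries and 1 and 0 in the WT. The erythroid sum was higher in both Piezo1KO libraries as well. The part of these cells in the levels of Tnf, Ptgs2, Tnfrsf9, Ctla4, Icos and Pdcd1 was not tested. Nfatc2 was lower in the Piezo1KO libraries, where these marker sums were higher, and the part of the cell mixture in its level was not tested either.

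Of 5 listed osmotic targets of Nfat5, 4 were tested and 0 passed (limma), with 1 at an unadjusted p under 0.05 (28.6% of all tested genes). Both Piezo1KO values were below both WT values for 3 of the 4 and above them for 1, against 35.6 and 33.9% of all tested genes, too few genes to read a difference from. Slc6a6, the taurine transporter, had an FPKM of 24.4 and 28.9 in the WT and of 20.9 and 13.05 in the Piezo1KO libraries (log2 difference -0.65, limma adjusted p = 0.184). Slc5a3, the inositol transporter, had -0.33 (limma adjusted p = 0.313), and Hspa4l, a chaperone, -0.42 (0.185). Akr1b3, the aldose reductase that makes sorbitol, had 0.37 (limma adjusted p = 0.160), with 16.8 and 17.1 in the WT and 21.5 and 22.9 in the Piezo1KO libraries, and turned to -0.40 with FPKM rescaled to all assigned reads.

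The genes nearest in pattern to Nfatc2 and Nfat5 were found by the root mean square difference of log2(FPKM + 1), centred by gene, over the 4 libraries. For Nfatc2 they were Dido1, Zfp871 and Wdfy3, with differences of 0.037, 0.048 and 0.060, and 24 genes in all lay within 0.1. For Nfat5 they were Fam135a, Mex3c and Gtpbp6, with 0.014, 0.022 and 0.027, and 344 genes lay within 0.1. On this scale the pattern of Nfat5 was thus common among the tested genes and that of Nfatc2 less so. The scale understates the change of Nfat5, which has low values. With a pseudocount of 0.1 the log2 differences were -1.18 for Nfat5 and -1.25 for Nfatc2. The deposited table also assigns the NF-kB factor genes to the Rel homology class that it gives the NFAT genes. All 5 of these were tested and 0 passed (limma), against 1.1% of all tested genes, with log2 differences from -0.35 to 0.41. Both Piezo1KO values were below both WT values for 1 and above them for 1, against 35.6 and 33.9% of tested genes. These are too few genes to read a difference from.

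**Figure D5:**
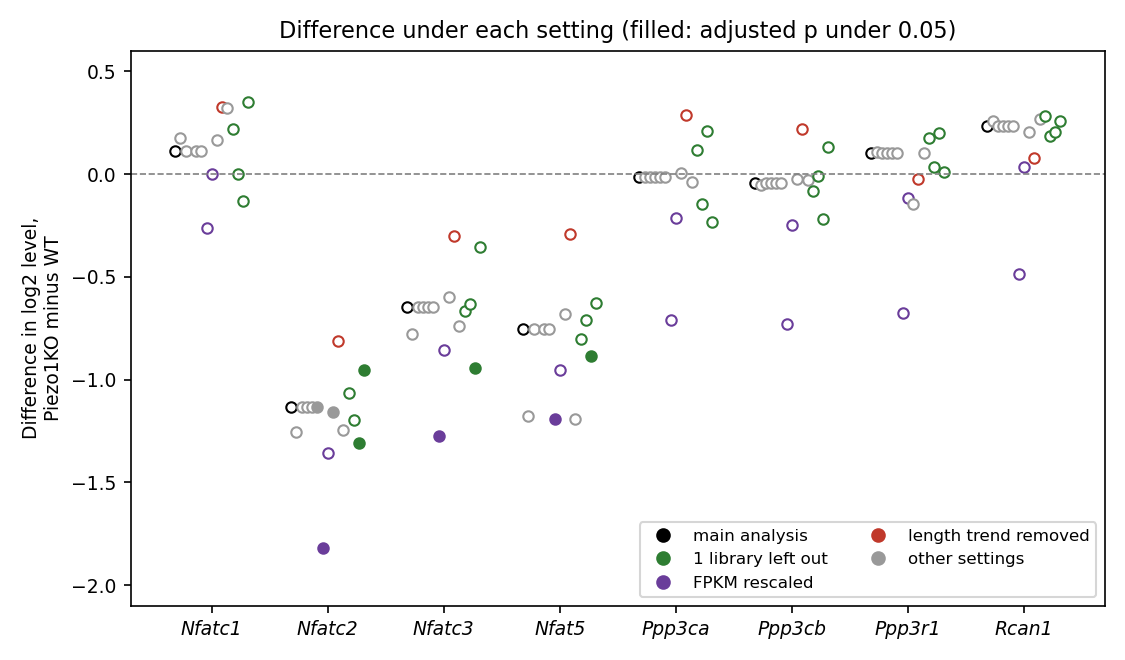
Difference in log2 level, Piezo1KO minus WT, of each tested gene under the main analysis and each alternative. Filled points have a limma adjusted p under 0.05. Nfatc2, Nfatc3 and Nfat5 stay below 0 in every setting drawn, with Nfatc2 between -1.82 and -0.81, while each of the other 5 genes has points on both sides of 0.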

How the data were processed

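The authors deposited 1 table of FPKM with a column for each of the 4 libraries and the length of every gene. The submitters' processing notes name fastp 0.19.7, featureCounts 1.5.0-p3 and the build mm10 (GRCm38). An aligner, a strand setting and an FPKM formula were not found in the sources used here. Multiplying FPKM by gene length gave whole reads for 100% of values (tolerance 0.05 reads). The total that scales them was 1.26 and 1.28 times the assigned reads in the WT and 0.962 and 0.544 times in the Piezo1KO libraries. Libraries carry the sample number of their titles, which differs from the number in the deposited column names of the WT libraries.

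The test was limma 3.58.1 (R 4.3.3) with moderated variances that follow the intensity (2 residual and 2.59 prior degrees of freedom) on log2(FPKM + 1), Piezo1KO minus WT and two-sided. It covered the 11085 genes whose FPKM averaged 1 or more, with Benjamini-Hochberg adjustment over all of them and a threshold of 0.05, and was tried on simulated data. Intervals of differences are 95% limma intervals. The members, gene lists and ratios were chosen with earlier results of these data known. The text names all members, Piezo1, the genes of the list of other calcineurin subunits and regulators (1 result is not reported here), up to 4 genes with the smallest p of each other list, and the 3 nearest genes for each of 2 members. Further NFAT targets were named with their values known. Alternatives changed the pseudocount, filter, trend, block, scaling, length trend or model (voom on the recovered reads), or left out 1 library. GENCODE M21 gave exon overlaps, and its gene coordinates equal those of the table for all 9 members.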

Additional observations from a re-analysis of the deposited data

How the results depend on the processing

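Of 110 values of the 8 tested members under alternatives, 86 kept their direction and side of the threshold, 9 kept the direction and passed, and 15 turned. Nfatc2, Nfatc3 and Nfat5 kept their direction in every alternative in which they were tested. Depth limits Nfatc1 and Nfatc4 most. Without a filter Nfatc4 had a log2 difference of -0.024 (limma adjusted p = 0.725). Nfatc1 and Nfat5 were not tested at a mean FPKM of at least 5. Apart from limits by their construction (fewer samples or genes), the causes of the changes below were not tested.

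Against 122 genes called, there were 1 without a filter (4156 at an unadjusted p under 0.05), 68 at a mean FPKM of at least 5, 1707 with FPKM rescaled to all assigned reads (median of all genes -0.67), 192 after quantile normalisation and 6 with the length trend removed. Of the 122 calls 66.4% were higher in Piezo1KO, of the 1707 only 16.2%, of the 137 with rescaling to reads outside mitochondrial genes 56.2%. Leaving out 1 library, where the lone sample left in an arm is assumed to vary like the other group, gave 0 (without WT 1 or WT 2, with 723 and 616 at an unadjusted p under 0.05) to 5859 (without Piezo1KO 1), and 1579 without Piezo1KO 2. Against 0 members called, there were 3 with FPKM rescaled to all assigned reads, 1 after quantile normalisation, and 0 to 3 leaving out 1 library (3 without Piezo1KO 1, 1 without Piezo1KO 2). Against 0 of 37 tested pathway and target genes called, there were 6, 1 and 0 to 20 (20 without Piezo1KO 1).

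With the sample number as a replicate block, 264 genes, 1 member (Nfatc2) and 2 pathway genes (Tnf, Tnfrsf9) were called. The deviations of same-numbered libraries from their group means had r = -0.033, and no label ties the numbers. The deposited column names number the WT libraries otherwise than the titles. The blocked samples thus share only the number of their titles, and another pairing would be as arbitrary.

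With FPKM rescaled to all assigned reads these values turned: Nfatc1 -0.26, Ppp3r1 -0.68, Rcan1 -0.49, Ppp3cc -0.61, Calm2 -0.47, Fkbp1a -0.22, Ppia -0.45, Bad -0.098 and Akr1b3 -0.40. With rescaling to reads outside mitochondrial genes Nfatc1 had -0.0020, Ppp3r1 -0.11 and Ppp3cc -0.12. After quantile normalisation Ppp3ca had 0.0054, Ppp3r1 -0.15, Calm2 -0.48 and Ppia -0.69. With the length trend removed Ppp3ca had 0.29, Ppp3cb 0.22, Ppp3r1 -0.025, Ppp3cc -0.098, Calm2 -0.20, Dyrk1a 0.0018 and Mef2a 0.027. Leaving out 1 library gave Nfatc1 -0.13 to 0.35, Ppp3ca -0.23 to 0.21, Ppp3cb -0.22 to 0.13, Ppp3cc -0.070 to 0.22, Chp1 -0.15 to 0.049, Calm3 -0.34 to 0.075 and Ppia -0.072 to 0.78.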
